A study of Rattus norvegicus with 11 samples.

Results

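The ATF4 amino acid stress program is a set of 47 rat genes that the transcription factor ATF4 is known to drive, or that act with it, when cells run short of amino acids or meet endoplasmic reticulum stress. The genes were listed by name and followed over every sample. Of the 47, 45 had a probe on the array among 16898 named genes, on 57 probes, and 11 of them had more than 1 probe. The synthetase Gars and the one-carbon enzyme Mthfd1l were not among the named probes. Cbs, which makes cystathionine from homocysteine, had values of 5.96 to 6.49 log2 on all 11 arrays, at or near the floor set on dim probes, and did not pass the filter on dim probes, so 44 members of 11069 genes were compared. Each gene was read from its brightest probe as log2 intensity, which can be compared between arrays for 1 gene but not between genes.

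As background, the kinases PERK, GCN2, PKR and HRI phosphorylate the initiation factor eIF2 under stress. This slows translation of most messages while translation of Atf4 goes up. ATF4 protein, often paired with a C/EBP factor, then binds composite C/EBP-ATF elements and raises genes for amino acid uptake, serine and one-carbon synthesis, tRNA charging and, on longer stress, the CHOP branch. Arrays measure only the messages, not the phosphorylation or the protein.

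The study gave tumour exosomes, vesicles that cells shed, to cultured rat cells and profiled RNA on 1-colour Agilent arrays. The groups were endothelial cells (EC) as control, with AS exosomes and with ASTspan8 exosomes; RF, with cell type given as endothelial fibroblasts, under the same conditions; RNA of the ASTspan8 exosomes themselves; and ASML tumour cells, either wild type or carrying a CD44 knock-down. AS is a pancreatic adenocarcinoma line, ASTspan8 the same line expressing tetraspanin 8, and ASML another line labelled pancreatic adenocarcinoma. Duplicate arrays existed for 2 groups, EC given ASTspan8 exosomes and exosome RNA, each other group was a single array, all cells were kept in RPMI with serum and G418, and exosome dose and hours of exposure are not given in the sources used here.

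Some labels could be checked on the arrays. EC carried fibroblast markers, with 12 of 15 above log2 9 on the control array, while endothelial Pecam1 was at 7.50, Cdh5 at 7.87 and Kdr at 6.52, and 3 of 15 endothelial markers were above that level. RF control also had 12 of 15 fibroblast markers above log2 9. Their median on the RF control, AS and ASTspan8 arrays was 13.23, 12.78 and 12.21. In RF 8 of 13 compared were at least 2-fold lower with ASTspan8 exosomes than in control, beside 5.25% of all genes. Among them were Lum at -3.74, Col3a1 at -3.61, Col1a1 at -2.26 and Pdgfra at -2.20. Those under 2-fold were Vim at -0.64, Fn1 at -0.03, Thy1 at 0.0, Postn at 0.11 and Pdgfrb at 0.22. On the RF ASTspan8 array 2 of 8 leukocyte markers were 2-fold higher than in control, beside 5.16% of all genes. These were Lyz2 at 1.82 and Cd68 at 1.18. The others were Itgam at 0.73, Spi1 at -0.07, Laptm5 at -0.19, Csf1r at -0.26, Cd74 at -0.63 and Cd14 at -0.85. The part of these shifts in the results was not tested. The RF control array is named RF in its title, but its source field names endothelial cell lines, as for EC control. Over 11025 genes that are not members its log2 values correlated most with RF AS (Pearson r = 0.988, a description across genes). Next came EC AS (0.977), with EC control at 0.968, and the lowest of the EC and RF arrays was RF ASTspan8 (0.966). The RF ASTspan8 array correlated at 0.969 with RF AS and at 0.946 to 0.950 with the EC arrays. The RF control array is the baseline of every RF difference from control and of the differences between the lines. ASML wild type had 13 of 14 epithelial markers above log2 9. In ASML with CD44 knock-down the brightest Cd44 probe was at 12.30 against 13.56 in wild type. The gene's 3 other probes were much dimmer. Of these, 2 were higher, at 8.79 against 8.28 and 8.77 against 7.43, so the label was not borne out by every probe. Tspan8, at 10.16 and 10.28 in exosome RNA, lay from 6.30 to 6.65 on the EC and RF arrays. Over the members, duplicate arrays had an SD of 0.0726 log2 for EC with ASTspan8 exosomes and 0.165 for exosome RNA. Over all 11069 genes the SDs were 0.0907 and 0.241, with 4 and 185 genes at least 2-fold apart. The brightest Cd44 probe was at 11.11 and 6.02 on exosome RNA replicates 1 and 2. In these bulk samples a shift in cell make-up and a shift in message per cell cannot be told apart.

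The C/EBP-ATF element can be looked for in the members' promoters. RefSeq promoters of assembly GRCr8, from 250 bases before to 50 after the start, were found for 43 members and searched on both strands for TGATGNAA, which includes TGATGCAA. The wider motif was in 15 of 43 member promoters (34.9%) and in 3.98% of 33469 rat promoters, and TGATGCAA was in 12 of 43 (27.9%) against 0.795%. The cyclic AMP type motif TGACGTCA was in 1 of 43 (2.33%), against 1.83%. Members were listed as known or likely ATF4 targets, so this is a description of the list. Windows are shown, read along the gene's strand, for 4 synthetases, Trib3, Pycr1, Chac1 and Fgf21. The synthetases, Trib3 and Pycr1 were at least 2-fold higher in RF with ASTspan8 exosomes than in RF control. Their differences ran from 1.43 log2 for Iars and 1.62 for Tars to 4.13 for Trib3. Chac1 and Fgf21 differed little there, with Fgf21 near the floor. All windows were picked with these values known. Capitals mark the motif, which reads from TT to CATCA where it lies on the opposite strand.
Aars, chr19:55908354-55908393, plus strand: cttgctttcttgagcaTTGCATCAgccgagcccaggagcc
Mars, chr7:65023747-65023786, minus strand: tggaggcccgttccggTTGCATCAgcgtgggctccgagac
Iars, chr17:15193653-15193692, minus strand: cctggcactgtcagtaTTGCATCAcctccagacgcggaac
Tars, chr2:62114806-62114845, minus strand: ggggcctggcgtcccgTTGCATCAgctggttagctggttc
Trib3, chr3:161275531-161275570, minus strand: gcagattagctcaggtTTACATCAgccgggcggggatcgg
Pycr1, chr10:106420920-106420959, minus strand: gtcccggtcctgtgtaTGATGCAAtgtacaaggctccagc
Chac1, chr3:126795948-126795987, plus strand: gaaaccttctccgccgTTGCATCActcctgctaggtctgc
Fgf21, chr1:105221496-105221535, minus strand: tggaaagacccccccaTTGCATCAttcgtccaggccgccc
These motifs begin 112, 17, 24, 27, 21, 131, 167 and 143 bases before the start, in the order shown. All these windows but that of Trib3 hold TGATGCAA.

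Over the whole program, messages fell in EC with ASTspan8 exosomes and were higher in RF with the same exosomes. In EC, 31 of 44 members fell against control and 0 rose (limma, adjusted p under 0.05), beside 13% of all genes that fell and 13.1% that rose, and the member median was -0.645 log2 against 0.01 for all genes. In RF, where each arm is 1 array and no test exists, 32 of 44 exceeded control by 2-fold or more and 0 fell short of it by 2-fold, beside 5.16% and 5.25% of all genes, with a median of 1.635 log2. The difference between the lines was tested directly as the ASTspan8 effect in RF minus that in EC: it was above 0 past the threshold for 38 members and below 0 for 0, beside 16.3% and 17.4% of all genes, with a median of 2.36 log2 and adjusted p of 0.00855 to 0.0387. The 6 members that did not pass were Atf5, Gpt2, Slc1a4, Slc38a2, Ddit4 and Fgf21.

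The direction in each line depends on where its 1 control array lay. Median member intensity was 11.605 log2 on the EC control array and 10.76, 10.885 and 10.885 on the EC arrays with AS and ASTspan8 exosomes, against 10.445, 11.16 and 11.955 on RF control, AS and ASTspan8 arrays. EC control was above the other EC arrays for 39 of 44 members (88.6%; 26.7% of all genes) and above RF control for 40 (90.9%; 45.1%). RF arrays ran control below AS below ASTspan8 for 39 members (88.6%; 20.4%), the exceptions being Chac1, Cth, Ddit4, Nupr1 and Slc38a2. The RF array with ASTspan8 exosomes was the highest of the 7 EC and RF arrays for 33 members (75%; 29.1% of all genes), and that array was also the lowest of the 7 for 23.8% of all genes. Without using either control, the RF array lay above both EC arrays with ASTspan8 exosomes for 40 members (90.9%; 49.1%), with Asns, Atf5, Cth and Slc38a2 as exceptions.

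The tests rest on 2 residual degrees of freedom from the duplicate arrays. Those are EC with ASTspan8 exosomes and exosome RNA, so the test between the lines holds no spread measured in RF. Without either EC ASTspan8 array, 0 members passed against control or in the difference between the lines by limma, although 28 (without replicate 1) and 32 (without replicate 2) of 44 had an unadjusted p under 0.05 against control, and 37 in either case between the lines. With no filter on dim probes, 15 of 45 members fell in EC, beside 4.4% of all genes changed in either direction.

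**Figure D1:**
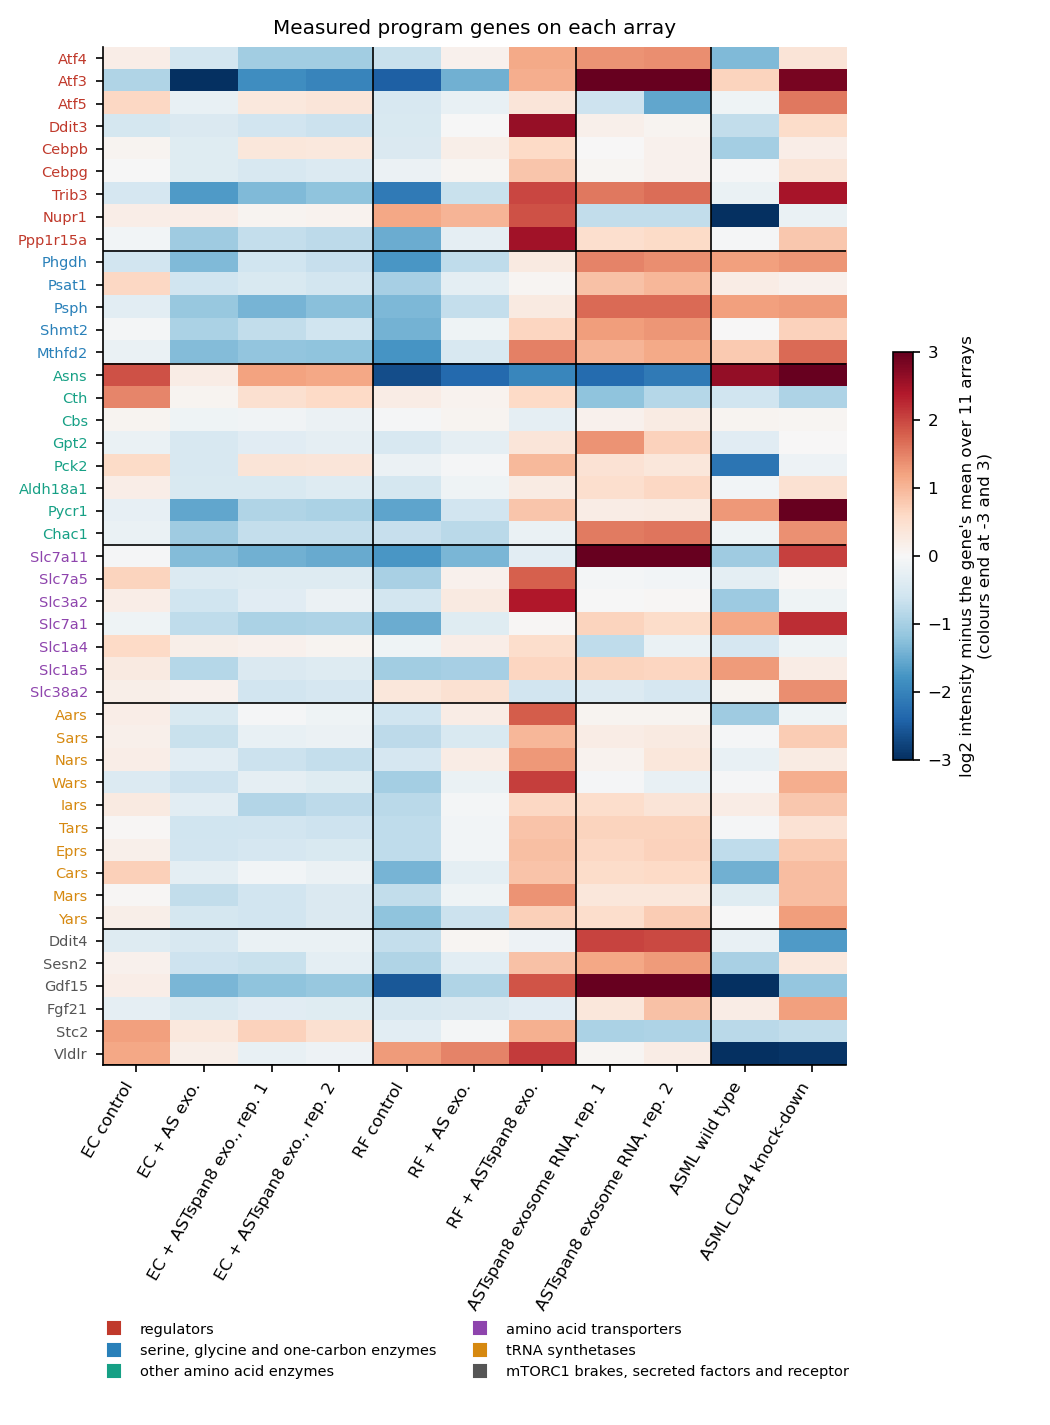
Heatmap of the 45 measured members (rows, coloured by role) on 11 arrays (columns); colour is log2 intensity minus the gene's mean over the arrays, with colours ending at -3 and 3. The RF column with ASTspan8 exosomes is the highest of the EC and RF columns for 33 of the 44 members past the filter, and the exosome RNA columns stand high for Atf3, Gdf15 and Slc7a11.

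**Figure D2:**
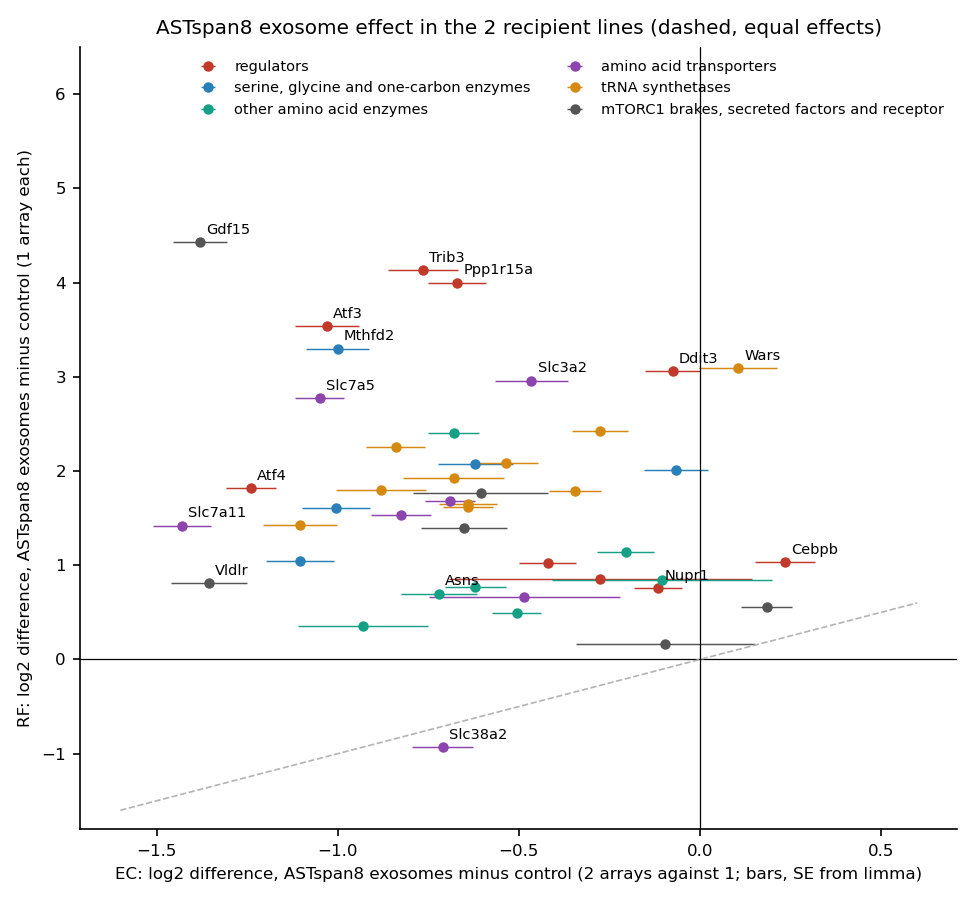
Each point is 1 of 44 members, with the log2 difference of ASTspan8 exosomes from control in EC on the x axis (2 arrays against 1; bars are the SE from limma) and in RF on the y axis (1 array each). Of the points, 43 lie above the dashed line of equal effects, from Gdf15 at the top to Slc38a2, which lies below 0 in both lines.

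Values below are log2 intensities in the order control, AS exosomes, ASTspan8 exosomes, with replicates 1 and 2 for EC. Among the regulators, Atf4 itself, the activator of the program, was at 15.23, 14.47, 13.99 and 13.99 in EC and 14.35, 15.16 and 16.17 in RF. EC control was the highest EC array and RF control the lowest RF array. Against control Atf4 fell in EC by 1.24 ± 0.07 (SE, n = 2 against 1, adjusted p = 0.0146, limma) and was higher in RF by 1.82, a 3.53-fold difference, and the difference between the lines was 3.06 ± 0.11.

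Ddit3, which encodes CHOP, was at 12.65, 12.75, 12.61 and 12.54 in EC and 12.73, 13.18 and 15.79 in RF. It lay close together on the EC arrays and stood apart on 1 array, RF with ASTspan8 exosomes, at 3.06 above control, 8.34-fold. Trib3, a pseudokinase that feeds back on ATF4 and CHOP, was at 9.23, 8.02, 8.40 and 8.53 in EC and 7.60, 9.06 and 11.73 in RF. Ppp1r15a, which encodes GADD34, the subunit that brings the phosphatase back to eIF2, was at 12.67, 11.68, 12.04 and 11.96 in EC and 11.27, 12.47 and 15.27 in RF. Atf3, a stress-induced factor downstream of ATF4, was at 8.90, 6.75, 7.93 and 7.81 in EC and 7.33, 8.34 and 10.87 in RF. For these last 3 genes EC control was the highest EC array, all fell in EC with ASTspan8 exosomes, and the RF array with ASTspan8 exosomes lay above every EC array. The differences between the lines were 4.90 ± 0.15 for Trib3, 4.67 ± 0.12 for Ppp1r15a, 4.57 ± 0.14 for Atf3 and 3.14 ± 0.12 for Ddit3.

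The remaining regulators moved less. Cebpb, a C/EBP partner of ATF4, was at 14.09, 13.63, 14.34 and 14.31 in EC and 13.57, 14.17 and 14.60 in RF. Its difference between the lines, 0.80 ± 0.13, is the smallest of those that passed. Cebpg, the short C/EBP partner, was at 10.62, 10.28, 10.17 and 10.23 in EC and 10.46, 10.70 and 11.48 in RF. Nupr1, a small stress-induced chromatin protein, was at 13.74, 13.74, 13.61 and 13.64 in EC and 14.68, 14.56 and 15.44 in RF. Nupr1 was higher on every RF array than on any EC array, and across treatments it was higher in RF than in EC by 1.25 ± 0.22 (adjusted p = 0.0294, additive limma fit of 7 arrays), a call lost without either EC ASTspan8 array or the EC control array. No other member was higher in RF by this test, beside 3.6% of all genes. Atf5, a relative of ATF4, was at 12.23, 11.40, 11.93 and 11.98 in EC and 11.13, 11.40 and 11.98 in RF, and neither its EC difference nor the difference between the lines passed.

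All 5 measured enzymes of serine, glycine and one-carbon synthesis were at least 2-fold higher in RF with ASTspan8 exosomes than in RF control, and 4 of 5 fell in EC. Phgdh, the first enzyme of serine synthesis, was at 14.37, 13.63, 14.35 and 14.26 in EC and 13.21, 14.19 and 15.22 in RF. Psat1, the aminotransferase of the next step, was at 14.13, 12.92, 13.07 and 12.98 in EC and 12.53, 13.22 and 13.57 in RF. Psph, the phosphatase that releases serine, was at 10.08, 9.27, 9.0 and 9.15 in EC and 9.05, 9.68 and 10.66 in RF. Phgdh was the exception in EC: its arrays with ASTspan8 exosomes lay close to control (-0.07 ± 0.09, adjusted p = 0.651), while Psat1 fell by 1.11 and Psph by 1.01. For Psat1, EC control was the highest of all 7 arrays.

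Serine then feeds one-carbon units in the mitochondrion. Shmt2, the mitochondrial enzyme that splits serine into glycine and a one-carbon unit, was at 11.76, 10.85, 11.06 and 11.22 in EC and 10.38, 11.67 and 12.45 in RF. Mthfd2, which oxidizes that unit, was at 12.02, 10.92, 11.03 and 11.01 in EC and 10.43, 11.72 and 13.73 in RF. Mthfd2 had the largest RF difference of the group, 3.30 or 9.85-fold, and fell in EC by 1.0. Its 3 probes gave RF differences of 2.25 to 3.30 and EC differences of -1.24 to -1.0. Differences between the lines were 4.30 ± 0.13 for Mthfd2, 2.69 ± 0.16 for Shmt2, 2.62 ± 0.14 for Psph, 2.15 ± 0.14 for Psat1 and 2.08 ± 0.14 for Phgdh.

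The other amino acid enzymes were split: 2 of 7 were at least 2-fold higher in RF with ASTspan8 exosomes and 5 of 7 fell in EC. Pycr1, which makes proline, was at 11.54, 10.24, 10.89 and 10.83 in EC and 10.21, 11.22 and 12.61 in RF. Pck2, the mitochondrial PEP carboxykinase, was at 12.99, 11.94, 12.80 and 12.77 in EC and 12.24, 12.39 and 13.38 in RF. These are the 2 that passed 2-fold in RF, at 2.40 and 1.14, and only Pycr1 of them fell in EC. The second, dim Pycr1 probe differed by 0.22 in RF and 0.00 in EC.

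Asns, asparagine synthetase and a textbook ATF4 target, was at 10.84, 9.16, 10.14 and 10.10 in EC and 6.29, 6.60 and 6.99 in RF. In RF it lay below the median of every array, which was 7.29 to 7.37, on all 3 arrays, with the control array near the floor, while in EC it lay far above it. A level that low was not shown to be above background, so the sizes that rest on it are measured values only and may understate the difference. Across treatments it was lower in RF than in EC, at -3.39 ± 0.35 (adjusted p = 0.00855, additive limma fit), the only member to be so, beside 5.07% of all genes. It fell in EC with ASTspan8 exosomes by 0.72 and was 0.70 higher in RF, with a difference between the lines of 1.42 ± 0.16.

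Aldh18a1, which makes the proline precursor, was at 11.53, 10.87, 10.88 and 10.94 in EC and 10.82, 11.22 and 11.59 in RF. Chac1, a glutathione-degrading enzyme, was at 9.32, 8.47, 8.82 and 8.81 in EC and 8.83, 8.71 and 9.32 in RF. Cth, the second enzyme of transsulfuration, was at 10.12, 8.73, 9.13 and 9.25 in EC and 8.88, 8.76 and 9.24 in RF. All 3 fell in EC and none was 2-fold higher in RF, where Chac1 and Cth with AS exosomes lay below control, and the differences between the lines passed at 1.39 ± 0.13, 1.0 ± 0.10 and 1.29 ± 0.27. Gpt2, a mitochondrial alanine transaminase, was dim at 6.86, 6.57, 6.72 and 6.79 in EC and 6.58, 6.78 and 7.42 in RF and passed neither test.

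**Figure D3:**
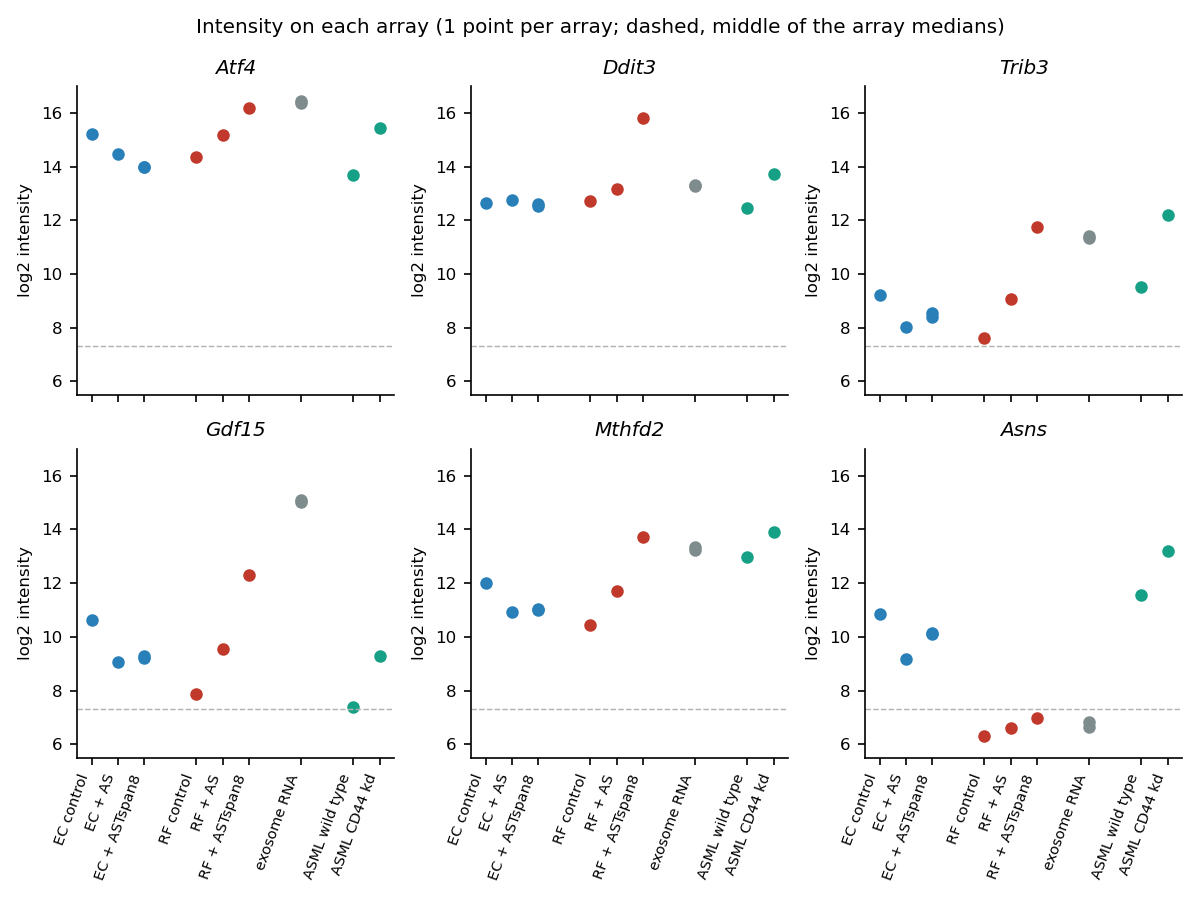
log2 intensity on each array for Atf4, Ddit3, Trib3, Gdf15, Mthfd2 and Asns, 1 point per array; the dashed line is the middle of the array medians, which run from 7.29 to 7.37. In RF the 3 points step up from control to ASTspan8 for each gene, while Asns stays below the line in RF and in exosome RNA.

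Of the 7 amino acid transporters, 6 fell in EC with ASTspan8 exosomes and 5 were at least 2-fold higher in RF. Slc3a2, the heavy chain CD98 that carries several light chains to the membrane, was at 12.65, 11.84, 12.10 and 12.27 in EC and 11.89, 12.72 and 14.85 in RF. Slc7a5, the light chain LAT1 for large neutral amino acids, was at 9.60, 8.53, 8.55 and 8.55 in EC and 7.96, 9.08 and 10.73 in RF. Slc7a11, the light chain xCT that takes up cystine, was at 8.96, 7.71, 7.56 and 7.50 in EC and 7.27, 7.63 and 8.69 in RF. Both chains of the LAT1 exchanger were highest on the RF array with ASTspan8 exosomes, at 2.96 and 2.77 above RF control, whereas Slc7a11 was highest in EC control. The dim second probe of Slc7a11 differed by 0.15 in RF and 0.03 in EC.

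Slc1a5, the ASCT2 carrier for glutamine, was at 11.48, 10.35, 10.77 and 10.81 in EC and 10.17, 10.20 and 11.85 in RF. Slc7a1, a cationic amino acid carrier, was at 10.49, 9.84, 9.65 and 9.68 in EC and 9.12, 10.24 and 10.65 in RF. Slc1a5 in RF was 1.68 above control with ASTspan8 exosomes and 0.03 with AS exosomes. Differences between the lines were 3.82 ± 0.10 for Slc7a5, 3.43 ± 0.16 for Slc3a2, 2.85 ± 0.12 for Slc7a11, 2.37 ± 0.10 for Slc1a5 and 2.36 ± 0.13 for Slc7a1. Slc38a2, the SNAT2 carrier for small neutral amino acids, went the other way in RF and was at 12.68, 12.64, 11.93 and 12.01 in EC and 12.86, 12.97 and 11.93 in RF. It was the lone member below 0 in the difference between the lines (-0.22 ± 0.13, adjusted p = 0.28), with -0.93 in RF and -0.71 in EC. Slc1a4, a carrier for serine and alanine, was at 8.09, 7.67, 7.62 and 7.59 in EC and 7.38, 7.70 and 8.04 in RF, and passed neither test.

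All 10 listed tRNA synthetases, the enzymes that load amino acids onto their tRNAs, were at least 2-fold higher in RF with ASTspan8 exosomes, and 8 of 10 fell in EC. The largest in RF was Wars, for tryptophan, at 12.94, 12.72, 13.09 and 13.0 in EC and 12.33, 13.15 and 15.42 in RF. Aars, for alanine, was at 13.65, 13.01, 13.42 and 13.33 in EC and 12.85, 13.67 and 15.28 in RF. Cars, for cysteine, was at 11.67, 10.67, 10.88 and 10.78 in EC and 9.57, 10.66 and 11.82 in RF. Wars and Aars are the 2 that did not pass in EC, and both were highest on the RF array with ASTspan8 exosomes. Yars, for tyrosine, was at 10.65, 9.94, 9.90 and 10.04 in EC and 9.26, 9.83 and 11.19 in RF. Mars, for methionine, was at 12.50, 11.72, 11.90 and 12.03 in EC and 11.72, 12.33 and 13.81 in RF. Nars, for asparagine, was at 10.10, 9.57, 9.25 and 9.19 in EC and 9.39, 10.13 and 11.19 in RF. For each of these 3 the RF array with ASTspan8 exosomes was the highest and EC control came above RF control.

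Sars, for serine, was at 11.71, 10.89, 11.34 and 11.39 in EC and 10.78, 11.10 and 12.57 in RF. Eprs, for glutamate and proline, was at 13.06, 12.32, 12.39 and 12.45 in EC and 12.14, 12.81 and 13.79 in RF. Iars, for isoleucine, was at 12.47, 11.88, 11.32 and 11.41 in EC and 11.38, 12.13 and 12.81 in RF, with the largest fall of the group in EC, by 1.11. Tars, for threonine, was at 13.32, 12.68, 12.70 and 12.66 in EC and 12.53, 13.19 and 14.15 in RF. Over the 10 the difference between the lines ran from 2.14 for Sars to 3.09 for Cars and passed in all 10. The motif TGATGCAA was in 7 of 10 listed synthetase promoters, 4 of which are printed above, and in none of 7 other cytosolic or 15 mitochondrial ones.

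The rest of the synthetase family gave a comparison within 1 function, with a list chosen with earlier results known. In RF with ASTspan8 exosomes the listed 10 ran from 1.43 to 3.09 (median 1.865), 8 other cytosolic synthetases from -0.43 to 1.57 (median 0.525) and 12 mitochondrial ones from -0.56 to 1.18 (median 0.485). Farsb and Lars, at 1.57 and 1.48, lay inside the range of the listed genes. In EC the medians were -0.64, -0.14 and -0.0675, and 8 of 10, 2 of 8 and 0 of 12 fell, with 1 other cytosolic synthetase, Farsa, that rose. The difference between the lines was above 0 past the threshold for 10 of 10, 3 of 8 and 3 of 12, beside 16.3% of all genes, and below 0 for 0 of 10, 1 of 8 (Qars, at -0.48) and 0 of 12, beside 17.4%.

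**Figure D4:**
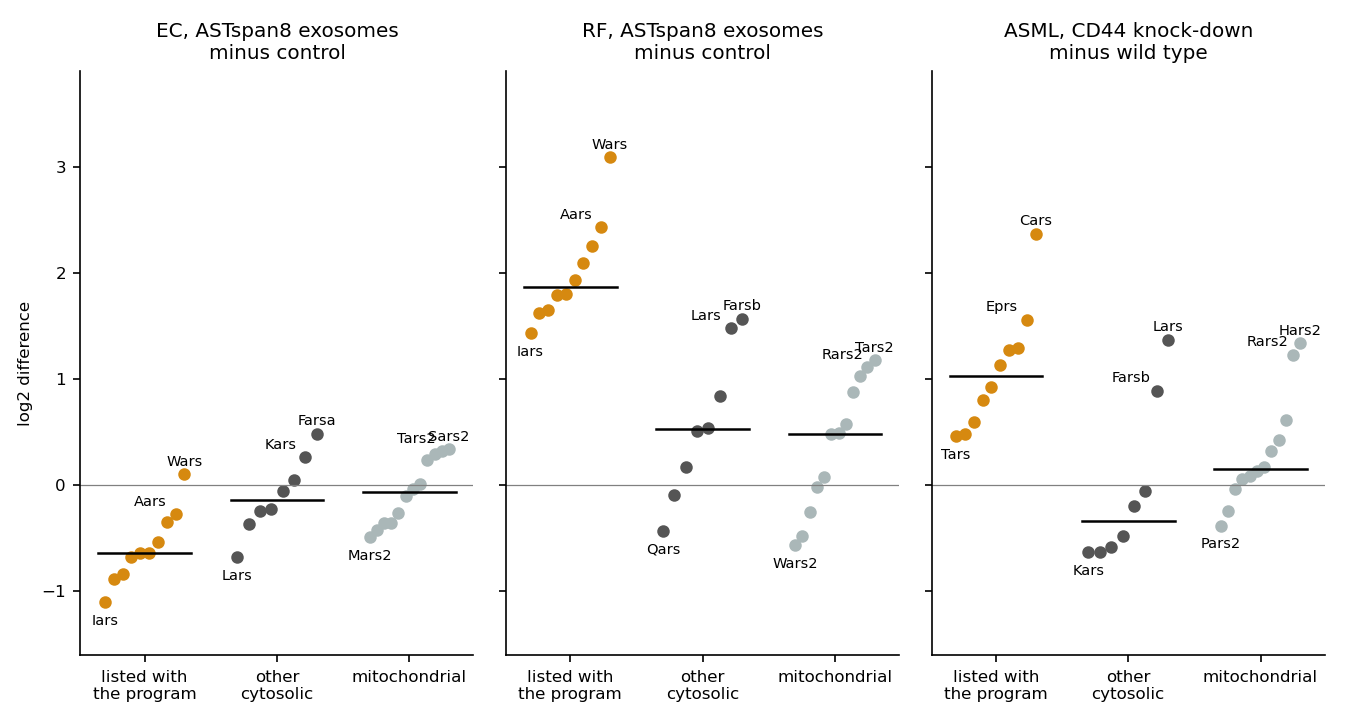
log2 differences of listed, other cytosolic and mitochondrial tRNA synthetases, 1 point per gene with the group median as a bar, for EC and RF with ASTspan8 exosomes against control and ASML CD44 knock-down against wild type. In RF every listed point lies above 1 and Farsb and Lars alone of the other cytosolic genes do.

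The last group holds brakes on the mTORC1 kinase, secreted factors and a receptor. Gdf15, a secreted stress cytokine, was at 10.63, 9.06, 9.22 and 9.28 in EC and 7.88, 9.53 and 12.31 in RF. It had the largest RF difference of all members, 4.43 or 21.6-fold, a fall in EC of 1.38, and the largest difference between the lines, 5.81 ± 0.12. Sesn2, which holds back mTORC1, was at 8.26, 7.53, 7.47 and 7.84 in EC and 7.25, 7.83 and 9.02 in RF. Stc2, a secreted glycoprotein, was at 8.29, 7.36, 7.75 and 7.53 in EC and 6.73, 6.99 and 8.12 in RF. Vldlr, a lipoprotein receptor, was at 10.47, 9.49, 9.08 and 9.15 in EC and 10.59, 10.79 and 11.40 in RF. All 3 passed between the lines, at 2.38 ± 0.28, 2.04 ± 0.18 and 2.17 ± 0.16, although Sesn2 did not pass in EC and Vldlr was under 2-fold in RF. Sesn2, Stc2 and Slc7a11 lay under the array medians in RF control; without the 6 members that were so dim in an arm, 29 of 38 were at least 2-fold higher in RF and 34 of 38 passed between the lines. Ddit4, the mTORC1 brake REDD1, was at 11.92, 11.82, 12.10 and 12.11 in EC and 11.59, 12.35 and 12.15 in RF, and Fgf21, a secreted metabolic hormone, was near the floor at 6.36, 6.17, 6.28 and 6.25 in EC and 6.13, 6.18 and 6.29 in RF, neither passing a test.

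In RF with ASTspan8 exosomes the 15 members with TGATGNAA had a median of 1.62 log2. The 26 with a promoter but no match had 1.63. Chac1, with the same letters as Mars and Tars, was at 0.49. Fgf21 also held these letters, but its 0.16 rests on levels near the floor. None of the serine and one-carbon genes held the motif. Because members were listed as known or likely ATF4 targets, this split cannot show whether the motif bears on size, which was not tested.

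With AS exosomes, from the parent line, members were lower in EC and higher in RF than in control, with 1 array in each arm and no test. In EC 13 of 44 members were at least 2-fold lower and 0 higher than control, beside 1.13% and 0.136% of all genes, with a median of -0.795; in RF 10 were at least 2-fold higher and 0 lower, beside 1% and 1.17%, with a median of 0.62. These and the ASTspan8 results share the control arrays. Additive fits of the 7 EC and RF arrays, in which a response that differs by line counts as spread, called 0 of 44 for AS and for ASTspan8 exosomes over both lines, with 0 and 2 members at an unadjusted p under 0.05 (limma; background 0% and 0.00903% of all genes).

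Comparing the 2 kinds of exosomes leaves the controls out. In EC, 8 of 44 members rose with ASTspan8 against AS exosomes and 2 fell, beside 7.75% and 8.52% of all genes. Without the 3 members under the array medians in an arm, among them Atf3 at 6.75 with AS exosomes, 7 of 41 rose and 2 fell. Atf3 rose by 1.12 ± 0.09, Asns by 0.96 ± 0.11, Pck2 by 0.85 ± 0.08, Cebpb by 0.70 ± 0.08, Phgdh by 0.68 ± 0.09, Pycr1 by 0.62 ± 0.07, Sars by 0.48 ± 0.07 and Slc1a5 by 0.44 ± 0.07, while Slc38a2 fell by 0.67 and Atf4 itself by 0.48. No call remained, 0 of 44, without any 1 of the 4 duplicate arrays or with no filter, and unadjusted p under 0.05 then held for 12 to 22 members. In RF, 22 were at least 2-fold higher with ASTspan8 than with AS exosomes and 1, Slc38a2, lower, beside 4.87% and 4.83%; Ppp1r15a led at 2.80, then Gdf15 at 2.78, Trib3 at 2.67 and Ddit3 at 2.61.

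Genes upstream of ATF4 and beside it were read from lists chosen with earlier results known. Of 8 genes for eIF2 kinases and phosphatase partners, 1, Eif2ak2 (PKR), was 2-fold higher in RF with ASTspan8 exosomes, at 1.33, beside 5.16% of all genes. Eif2ak3 (PERK) was at -0.16 and Eif2ak4 (GCN2) at -0.87 there. Between the lines 4 of these 8 passed above 0, and Eif2ak4 passed below 0 at -0.81, beside 16.3% and 17.4% of all genes. The 4 were Eif2ak2 at 1.47, Ppp1cb at 1.365, Impact at 1.32 and Eif2s1 at 1.14. Ppp1cb and Impact differed from control by -1.085 and -0.76 in EC and by 0.28 and 0.56 in RF. Of 25 other reported ATF4 targets, 11 were 2-fold higher in RF and 1 lower, beside 5.16% and 5.25% of all genes. Of the 25, 9 fell and 0 rose in EC, beside 13% and 13.1%, and 15 passed above 0 and 2 below 0 between the lines. Rragd, a GTPase of mTORC1 signalling, was at 2.56 in RF, the protease Lonp1 at 2.23 and the glycine carrier Slc6a9 at 2.11, while Cebpd was at -1.81.

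Endoplasmic reticulum chaperones and other unfolded protein genes were mixed. Of 14, 3 were at least 2-fold higher in RF with ASTspan8 exosomes, beside 5.16% of all genes, and the median was -0.155. The 3 were Atf6 at 2.40, Sdf2l1 at 1.74 and Hspa5 (BiP) at 1.19. With AS exosomes in RF 4 of 14 were 2-fold higher, beside 1% of all genes, and the median was 0.72. Set directly against AS exosomes in RF, 1 of 14 was 2-fold higher with ASTspan8 exosomes and 4 were lower, beside 4.87% and 4.83%. In EC with ASTspan8 exosomes 4 rose and 2 fell, beside 13.1% and 13% of all genes. Of 8 other folate and serine enzymes, Mthfd1 at 1.73 and Shmt1 at 1.48 were 2-fold higher in RF, and between the lines 7 passed above 0 and 1 below, beside 16.3% and 17.4%.

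In ASML the program was higher with CD44 knock-down, 1 array against 1 and not tested. At least 2-fold higher were 22 of 44 members and lower 2, beside 10.6% and 9.01% of all genes, with a median of 0.985. Markers moved on the same pair of arrays. The epithelial median was 13.84 in wild type and 12.715 with CD44 knock-down, and 7 of 14 epithelial markers compared were at least 2-fold lower, among them Esrp1 at -3.52, Krt18 at -2.33 and Cldn4 at -2.13, with Epcam at -0.35. Of 13 fibroblast markers 2 were higher, Col6a1 at 5.92 and Col3a1 at 3.53, beside 10.6% of all genes. Of 8 leukocyte markers 1 was lower, Cd74 at -2.93, beside 9.01%. The part of these shifts in the program's difference was not tested. Atf4 was at 13.70 in ASML wild type, 15.42 with CD44 knock-down, and 16.38 and 16.43 in exosome RNA. Atf3 was at 10.47 in ASML wild type, 12.64 with CD44 knock-down, and 13.30 and 13.36 in exosome RNA. Trib3 was at 9.52 in ASML wild type, 12.21 with CD44 knock-down, and 11.32 and 11.41 in exosome RNA. Among regulators 7 of 9 passed 2-fold, Nupr1 leading at 2.86, and Ddit3 was at 12.45 in ASML wild type, 13.74 with CD44 knock-down, and 13.33 and 13.28 in exosome RNA. Nupr1 was at 10.48 in ASML wild type, 13.34 with CD44 knock-down, and 12.80 and 12.80 in exosome RNA. Ppp1r15a was at 12.72 in ASML wild type, 13.56 with CD44 knock-down, and 13.26 and 13.32 in exosome RNA. Cebpb was at 12.97 in ASML wild type, 14.20 with CD44 knock-down, and 14.01 and 14.12 in exosome RNA. Ppp1r15a, the GADD34 gene, stayed under 2-fold, at 0.84, and Cebpg was at 10.60 in ASML wild type, 11.03 with CD44 knock-down, and 10.69 and 10.77 in exosome RNA. Atf5 was at 11.50 in ASML wild type, 13.19 with CD44 knock-down, and 10.99 and 10.07 in exosome RNA, with its exosome arrays 0.92 apart, the widest gap of any member.

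The serine and one-carbon enzymes were the group with 0 of 5 at 2-fold. Phgdh was at 16.19 in ASML wild type, 16.27 with CD44 knock-down, and 16.45 and 16.35 in exosome RNA. Psat1 was at 13.74 in ASML wild type, 13.64 with CD44 knock-down, and 14.40 and 14.52 in exosome RNA. Psph was at 11.62 in ASML wild type, 11.68 with CD44 knock-down, and 12.10 and 12.10 in exosome RNA. All 3 differed by at most 0.10 between the ASML arrays. Shmt2 was at 11.82 in ASML wild type, 12.49 with CD44 knock-down, and 13.05 and 13.13 in exosome RNA. Mthfd2 was at 12.99 in ASML wild type, 13.90 with CD44 knock-down, and 13.22 and 13.35 in exosome RNA. These 2 were 0.67 and 0.91 higher, and 4 of 8 other folate and serine enzymes were at least 2-fold lower, Atic at -2.16.

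Among the other enzymes 4 of 7 were 2-fold higher. Asns was at 11.57 in ASML wild type, 13.20 with CD44 knock-down, and 6.63 and 6.81 in exosome RNA. Pycr1 was at 13.10 in ASML wild type, 14.98 with CD44 knock-down, and 12.02 and 12.04 in exosome RNA. Pck2 was at 10.22 in ASML wild type, 12.26 with CD44 knock-down, and 12.85 and 12.76 in exosome RNA. Asns, below the array median in exosome RNA, was bright in ASML. Chac1 was at 9.39 in ASML wild type, 10.90 with CD44 knock-down, and 11.09 and 11.13 in exosome RNA. Aldh18a1 was at 11.26 in ASML wild type, 11.80 with CD44 knock-down, and 11.85 and 11.95 in exosome RNA. Cth was at 8.05 in ASML wild type, 7.73 with CD44 knock-down, and 7.45 and 7.80 in exosome RNA. Of these Chac1 alone passed 2-fold. Gpt2 was at 6.73 in ASML wild type, 7.06 with CD44 knock-down, and 8.40 and 7.74 in exosome RNA.

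Transporters were 3 of 7 higher and 1 lower. Slc7a11 was at 7.94 in ASML wild type, 11.06 with CD44 knock-down, and 12.41 and 12.33 in exosome RNA. Slc3a2 was at 11.35 in ASML wild type, 12.32 with CD44 knock-down, and 12.43 and 12.47 in exosome RNA. Slc7a5 was at 8.66 in ASML wild type, 8.97 with CD44 knock-down, and 8.88 and 8.85 in exosome RNA. The cystine chain differed most, 3.12, and the LAT1 chain by 0.31. Slc38a2 was at 12.60 in ASML wild type, 13.91 with CD44 knock-down, and 12.09 and 12.0 in exosome RNA. Slc7a1 was at 11.77 in ASML wild type, 12.82 with CD44 knock-down, and 11.28 and 11.17 in exosome RNA. Slc1a5 was at 12.48 in ASML wild type, 11.44 with CD44 knock-down, and 11.87 and 11.85 in exosome RNA. Slc38a2 was higher, by 1.31, and Slc1a5 lower, by 1.04, than in wild type. Slc1a4 was at 7.0 in ASML wild type, 7.38 with CD44 knock-down, and 6.74 and 7.31 in exosome RNA.

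Synthetases passed 2-fold in 5 of 10, with a median of 1.03 against -0.34 for other cytosolic and 0.15 for mitochondrial ones. Cars was at 9.51 in ASML wild type, 11.88 with CD44 knock-down, and 11.51 and 11.55 in exosome RNA. Eprs was at 12.13 in ASML wild type, 13.69 with CD44 knock-down, and 13.51 and 13.59 in exosome RNA. Mars was at 12.09 in ASML wild type, 13.38 with CD44 knock-down, and 12.81 and 12.81 in exosome RNA. Cars led, at 2.37. Yars was at 10.47 in ASML wild type, 11.74 with CD44 knock-down, and 11 and 11.24 in exosome RNA. Wars was at 13.32 in ASML wild type, 14.45 with CD44 knock-down, and 13.31 and 13.14 in exosome RNA. Aars was at 12.40 in ASML wild type, 13.33 with CD44 knock-down, and 13.55 and 13.55 in exosome RNA. Aars was just under 2-fold at 0.93. Sars was at 11.52 in ASML wild type, 12.32 with CD44 knock-down, and 11.78 and 11.83 in exosome RNA. Iars was at 12.41 in ASML wild type, 13.01 with CD44 knock-down, and 12.73 and 12.58 in exosome RNA. Nars was at 9.67 in ASML wild type, 10.15 with CD44 knock-down, and 10.0 and 10.23 in exosome RNA. These and Tars, at 13.26 in ASML wild type, 13.72 with CD44 knock-down, and 13.96 and 13.95 in exosome RNA, stayed under 2-fold.

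In the last group Gdf15 and Sesn2 were 2-fold higher and Ddit4 lower. Gdf15 was at 7.37 in ASML wild type, 9.27 with CD44 knock-down, and 15.08 and 15.02 in exosome RNA. Sesn2 was at 7.17 in ASML wild type, 8.46 with CD44 knock-down, and 9.31 and 9.43 in exosome RNA. Ddit4 was at 12.08 in ASML wild type, 10.59 with CD44 knock-down, and 14.33 and 14.27 in exosome RNA. Ddit4 was lower by 1.49, and by 1.30 on its second probe. Fgf21 was at 6.85 in ASML wild type, 7.85 with CD44 knock-down, and 6.96 and 7.49 in exosome RNA. It is also among the 22, at exactly 2-fold, but it passed the filter on dim probes through the CD44 knock-down array alone, so its place there is fixed by the filter, and without it 21 of 43 were higher. Vldlr was at 6.20 in ASML wild type, 6.38 with CD44 knock-down, and 9.36 and 9.53 in exosome RNA. Stc2 was at 6.25 in ASML wild type, 6.32 with CD44 knock-down, and 6.11 and 6.13 in exosome RNA. Vldlr and Stc2 lay below the array medians in both ASML arrays, and Sesn2 did in wild type. Without the 6 members so dim in an arm, 20 of 38 were at least 2-fold higher and 2 lower.

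RNA of ASTspan8 exosomes was compared with ASML wild type, which describes 2 kinds of RNA from different tumour lines. Against ASML wild type 29 of 44 members were higher and 5 lower (limma, adjusted p 7.08e-05 to 0.0483), beside 32.3% and 35.4% of all genes. Gdf15 was higher by 7.68 ± 0.08, Slc7a11 by 4.43 ± 0.08, Vldlr by 3.25 ± 0.11, Atf3 by 2.86 ± 0.09 and Atf4 by 2.71 ± 0.07. Vldlr rests on a level near the floor in ASML wild type, and its difference may be understated. Lower were Asns, at -4.85 ± 0.11 and below the array medians in exosome RNA, so likewise, Pycr1, at -1.07 ± 0.07, Slc1a5, Slc38a2 and Slc7a1. Without the 7 members under the array medians in an arm, 26 of 37 were higher and 4 lower. The median over all 44 was 0.67, against -0.085 for all genes.

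**Figure D5:**
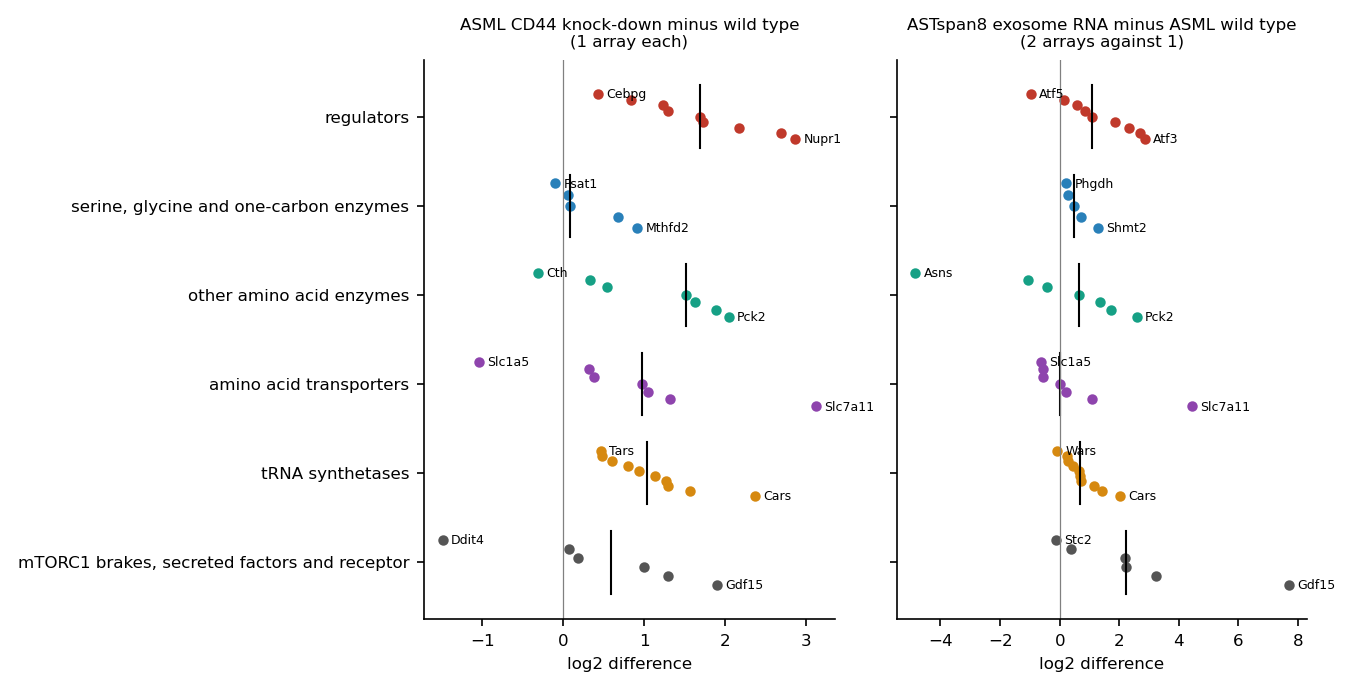
log2 differences of the 44 members by role, 1 point per gene with the group median as a bar: ASML CD44 knock-down minus wild type (left, 1 array each) and ASTspan8 exosome RNA minus ASML wild type (right, 2 arrays against 1). On the left the serine and one-carbon group has a median of 0.08, with Mthfd2 at 0.91 and Shmt2 at 0.67, while regulators have a median of 1.69; on the right Gdf15 and Asns are the ends, at 7.68 and -4.85.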

How the data were processed

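The authors deposited 1 linear intensity per probe and array, already normalized between arrays; the method, background correction and probe summary are not given in the sources used here. Per the labels' protocols, RNA was extracted with Trizol and cleaned on columns with DNase. Array medians of log2 intensity computed from the deposited values lay between 7.29 and 7.37, so no further scaling was applied. Values were floored at their 1st percentile (log2 5.96, which raised 0.816%) and log2 transformed. Probes were kept when their mean within-array percentile exceeded 50 in at least 1 of 9 groups (18619 of 30367). Of all probes, 20369 had 1 gene symbol, updated through the RefSeq gene table of GRCr8, and a gene was read from the probe with the highest mean over 11 arrays.

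Comparisons used limma 3.58.1 in R 4.3.3 (lmFit, eBayes), Benjamini-Hochberg adjusted over all 18619 probes at 0.05. One fit held 9 group means over 11 arrays, with single arrays assumed to vary like the duplicated groups; the other was additive in line and treatment over the 7 EC and RF arrays. Comparisons of 1 array with 1 had no test, and genes at least 2-fold apart were counted. Nothing in the labels says that duplicate arrays came from separate cultures, so a p-value covers only how these arrays spread, which may be technical, and the number of arrays limits the precision. The fits were tested on simulated data. Alternatives were other scalings, filters, probe summaries, variance priors, array sets and fold thresholds, and leaving out each duplicate array.

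Members, gene lists and tests were chosen with earlier results of these data known. Every member is accounted for. Values by array were to be given for up to 4 members of each role with the largest range over EC and RF arrays. They were also to be given for Atf4 and for each member past the test between the lines. Other lists were to be given by counts with up to 3 members, but more are named for some lists.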

Additional observations from a re-analysis of the deposited data

Results flagged for a closer look

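These members are shown again because their ASTspan8 effect differed between RF and EC in a direct limma test, adjusted over all probes, in which 16.3% of all genes lay above 0 and 17.4% below. Values are the RF effect minus the EC effect in log2, with 1 RF array in each arm. Among regulators the difference was 4.90 for Trib3, 4.67 for Ppp1r15a, 4.57 for Atf3, 3.14 for Ddit3, 3.06 for Atf4, 1.44 for Cebpg, 0.88 for Nupr1 and 0.80 for Cebpb. For serine, glycine and one-carbon enzymes it was 4.30 for Mthfd2, 2.69 for Shmt2, 2.62 for Psph, 2.15 for Psat1 and 2.08 for Phgdh. For the other amino acid enzymes it was 3.08 for Pycr1, 1.42 for Asns, 1.39 for Aldh18a1, 1.35 for Pck2, 1.29 for Cth and 1.00 for Chac1. Transporters differed by 3.82 for Slc7a5, 3.43 for Slc3a2, 2.85 for Slc7a11, 2.37 for Slc1a5 and 2.36 for Slc7a1. The tRNA synthetases differed by 3.09 for Cars, 2.99 for Wars, 2.71 for Aars, 2.68 for Nars, 2.63 for Mars, 2.61 for Yars, 2.54 for Iars, 2.29 for Eprs, 2.26 for Tars and 2.14 for Sars. In the last group it was 5.81 for Gdf15, 2.38 for Sesn2, 2.17 for Vldlr and 2.04 for Stc2. 

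With AS exosomes 7 members were at least 2-fold lower than control in EC and at least 2-fold higher in RF, with 1 array in each arm. They are 15.9% of the 44, beside 0.244% of all genes (27 of 11069), and 0 members were 2-fold apart the opposite way. In EC and RF, in that order, the log2 differences were -2.15 and 1.01 for Atf3, -1.21 and 1.46 for Trib3, -1.10 and 1.29 for Mthfd2, -1.30 and 1.01 for Pycr1, -1.07 and 1.12 for Slc7a5, -1.0 and 1.09 for Cars and -1.57 and 1.65 for Gdf15. The EC difference of Atf3 rests on an AS array level of 6.75, under the array medians. For these 7 members the difference between the lines was not tested.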

How the results depend on the processing

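The counts depend most on the duplicate arrays and the filter on dim probes. Leaving out 1 duplicate array at a time gave 0 to 26 members changed in EC with ASTspan8 exosomes against control (31 with all arrays), 0 to 0 against AS exosomes (10), 0 to 41 between the lines (38), 29 to 36 for exosome RNA (34) and 1 to 1 for RF against EC (2), and 0 to 0 in each of the 3 treatment effects over both lines (0). With no filter, 15 changed in EC against control and 0 against AS exosomes. Against AS exosomes the count was 18 with a filter at the 75th percentile, 22 with trend and robust eBayes and 0 with only the EC arrays. At 1.5-fold, 33 members differed with AS exosomes in EC and 24 in RF; at 3-fold the counts were 2 and 1, and 11 for RF ASTspan8 against AS exosomes and 11 for ASML. Chosen after seeing the data, leaving out the RF ASTspan8 array gave 1 member for ASTspan8 against control and 1 against AS exosomes over both lines. It turned the member medians from 0.3377 to -0.2825, from 0.4705 to -0.2238 and, for RF against EC, from 0.3295 to -0.2475. Slc1a4 in exosome RNA against ASML, 0.025 with all arrays, ran from -0.26 to 0.31 without exosome replicate 2 or 1. Leaving out members under the array medians in an arm, also chosen after seeing the data, moved no count by over 1.5 times. The causes were not tested beyond these settings. For single members over the settings run, 255 values lost and 58 gained a call, and 25 untested values moved beyond the duplicate spread. The 4335 counted as unchanged include values without a call whose sign changed. They also include untested values that moved by less than 0.128 log2. No paired analysis was possible because the groups compared share fewer than 2 replicate numbers.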
